A study of Mus musculus with 8 samples.

Results

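The NKG2 and NKR-P1 receptors and their relatives are C-type lectin-like membrane proteins by which natural killer (NK) cells and some T cells read other cells. The 10 genes described here were taken by name: the NKG2 branch with *Klrk1*, *Klrc1*, *Klrc2* and their partner *Klrd1*, the NKR-P1 branch with *Klrb1a*, *Klrb1b*, *Klrb1c* and *Klrb1f*, and the relatives *Klrg1* and *Klre1*. They are 10 of the 54232 genes counted, and each of the 10 passed the filter on low counts. Transcripts were sequenced from NK cells sorted by NK1.1 and from sorted CD8+ T cells, taken directly from the spleens of unchallenged mice aged 8 to 12 weeks, with 3 spleens pooled for each library. The labels give the strain as C57BL/6, and the study's methods name a C57BL/6N background. NK cells (3 libraries) and CD8+ T cells (3 libraries) of *Tyk2*-/- mice were compared, so both groups lack the Janus kinase TYK2, and the values describe these receptors without TYK2, not an effect of its loss. Whether NK and CD8+ T cell libraries came from the same animals is not stated in the labels.

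In this family, receptors divide by their short cytoplasmic tails. Inhibitory members carry an immunoreceptor tyrosine-based inhibition motif (ITIM), which binds the phosphatases SHP-1, SHP-2 and SHIP-1 once its tyrosine is phosphorylated. Activating members pair in the membrane with adaptors such as DAP10, DAP12 or the Fc receptor gamma chain, which call on phosphoinositide 3-kinase or on the kinases SYK and ZAP70. The NKG2A and NKG2C proteins reach the surface as dimers with CD94 and read the non-classical MHC molecule Qa-1, NKG2D reads stress-induced ligands, NKR-P1 receptors read lectin-like CLEC2 proteins encoded among them, and KLRG1 binds cadherins.

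Matches to the motif were searched for in the coding sequences of GENCODE transcripts. A codon for serine, isoleucine, valine or leucine, any codon, a tyrosine codon, any pair of codons and a codon for isoleucine, valine or leucine had to follow each other within the first 60 codons of each member. There were 5 matches in 4 genes, *Klrc1*, *Klrb1b*, *Klrg1* and *Klrb1c*, and none in the other 6. All 5 are printed, since the inhibitory receptors are known for this motif, with the match in capitals and flanking coding bases in lower case.
Klrc1, codons 6 to 11: gaacgcGTCACCTATGCAGAACTGaaggtg
Klrb1b, codons 6 to 11: acaacaCTGGTCTATGCAGATTTAaaccta
Klrg1, codons 5 to 10: gacagcTCTATCTATTCAACACTAgagctg
Klrg1, codons 54 to 59: agtctaCTGATGTATCAACGGATCctgtgc
Klrb1c, codons 53 to 58: acagcaAGTATCTACCTCGGTTTAaagcca
*Klrb1c* encodes an activating receptor, so that these letters do not separate inhibitory from activating members. The transcript searched for it has 271 codons, against 217 to 233 for the other NKR-P1 genes, and codon numbers are counted from the start of each transcript's own coding sequence. The first 60 codons were searched without regard to where the cytoplasmic tail ends. A match, such as the later one of *Klrg1*, thus need not lie in the tail. A match of letters is a description and no evidence that the tyrosine is used.

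The genes lie on chromosome 6 of GRCm38. The block from *Klrb1a* to *Klrc1* spans 1.07 Mb and holds 9 of the 10 genes, in the order *Klrb1a*, *Klrb1c*, *Klrb1b*, *Klrb1f*, *Klre1*, *Klrd1*, *Klrk1*, *Klrc2* and *Klrc1*, while *Klrg1* lies outside it, at chr6:122270596-122282882. *Klrb1f*, *Klre1* and *Klrd1* are on the plus strand and the others on the minus strand. RefSeq promoter sequences of GRCm38.p6 were at hand for 8 of the 10 genes, not for *Klrd1* and *Klrg1*. In the 250 bases before the start, the RUNX core TGTGGT was found on either strand in 6 of these 8, as against 14.2% of 27025 promoters, and the ETS core AGGAAG in 4 of 8, as against 29.2%. RUNX and ETS proteins are transcription factors of lymphocytes. The T-box core TCACAC was not found in these 8 windows, against 12.2% of all promoters. Both strands were searched for each motif, and matches could overlap. No test was made of these shares, and a match is not a binding site. Shown are an activating NKG2 gene, the inhibitory *Klrc1* and *Klrb1f*, an NKR-P1 gene with no counts in CD8+ T cells, each on its own strand from chr6:129623865-129624114 (minus), chr6:129678974-129679223 (minus) and chr6:129045651-129045900 (plus), with matches to these motifs in capitals.
Klrk1: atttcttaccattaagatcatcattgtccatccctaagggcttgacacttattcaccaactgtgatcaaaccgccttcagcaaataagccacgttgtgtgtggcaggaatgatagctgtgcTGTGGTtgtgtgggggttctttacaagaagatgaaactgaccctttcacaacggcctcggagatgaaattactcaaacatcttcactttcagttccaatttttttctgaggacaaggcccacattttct
Klrc1: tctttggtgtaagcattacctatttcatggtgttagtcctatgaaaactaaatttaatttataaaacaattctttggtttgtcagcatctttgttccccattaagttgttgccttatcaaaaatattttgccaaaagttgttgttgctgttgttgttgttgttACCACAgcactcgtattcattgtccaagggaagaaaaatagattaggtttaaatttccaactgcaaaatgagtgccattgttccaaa
Klrb1f: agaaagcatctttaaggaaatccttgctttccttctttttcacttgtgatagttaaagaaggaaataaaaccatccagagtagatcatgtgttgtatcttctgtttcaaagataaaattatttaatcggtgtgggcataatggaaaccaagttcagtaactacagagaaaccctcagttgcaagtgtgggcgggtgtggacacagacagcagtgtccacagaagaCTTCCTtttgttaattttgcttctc

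Depth ran from 20957384 to 26144478 counts for CD8+ T cells and from 32848432 to 38573550 for NK cells. A gene with at most 3 counts in a library counts as not detected there, a floor for counting error alone. Normalised counts below are scaled with TMM factors to the mean effective size of the 6 libraries. The labels of the cell types were borne out by defining markers. *Ncr1* had no count in CD8+ T cells and *Cd8b1* none in NK cells. Of the markers fixed for each type, 5 of 6 NK cell genes were called higher in NK cells, as 6.1% of all genes were. Of the CD8+ T cell genes, 7 of 8 were called higher in CD8+ T cells, as 5.04% of all genes were. Of those called, *Ncr1*, *Itga2*, *Cd8a*, *Cd8b1* and *Cd5* passed the filter through 1 cell type alone, which fixes their direction. NK cells also held T cell transcripts, each below every CD8+ T cell library. *Cd3d* had 2978, 8065 and 6290 counts in NK cells, *Cd3g* 4879, 7598 and 4337 and *Trbc2* 6468, 6818 and 7809. Reads on *Tyk2* were present in each of the 6 libraries, 3207 to 4245 counts in NK cells and 105 to 919 in CD8+ T cells. With no *WT* library beside them and with reads not split by exon, these counts do not check the genotype. B cell markers were uneven among the CD8+ T cell libraries: libraries 1, 2 and 3 had 347, 17 and 0 counts of *Cd79a*, 405, 6 and 0 of *Ms4a1* and 4691, 3853 and 972 of *Cd79b*, while *Pax5* was at 0 in each. In NK cell libraries 1, 2 and 3, *Cd79b* had 263, 1813 and 2 counts. *Cd79a* had 1, 1 and 0 counts there, *Ms4a1* 0, 2 and 0, and *Pax5* 0, 0 and 6. Myeloid and erythroid markers were at no more than 93.4 normalised counts in any library.

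Every one of the 10 receptor genes was higher in each NK cell library than in each CD8+ T cell library, a separation that 25.5% of the 14062 genes tested showed. In edgeR's quasi-likelihood test, 5 of the 10 were called (adjusted p below 0.05 and at least a 2-fold change), all higher in NK cells, and none was higher in CD8+ T cells. Of all genes tested, 11.1% were called, with 6.1% higher in NK cells and 5.04% lower. The 5 called genes were *Klrk1*, *Klrb1b*, *Klrb1c*, *Klrb1f* and *Klre1*. With DESeq2, 9 of the 10 and 3572 of the 14062 genes tested were called. Without CD8+ T cell library 1, edgeR called 8 of the 10 and 1642 of the 14174 genes then tested. Of the 8, *Klrb1b*, *Klrb1f*, *Klre1*, *Klrc1*, *Klrc2* and *Klrg1* were not detected in the remaining CD8+ T cell libraries. Each of these passed the filter through NK cells alone, which fixes its direction. *Klrb1c* encodes NK1.1, the antigen by which the NK cells were sorted, so its difference follows from the sort and is no finding. Without *Klrb1c*, edgeR called 4 of 9 genes with all libraries. Of these 4, only *Klrk1* had a CD8+ T cell mean (202) above the filter's 10 normalised counts. The median log2 fold change of the 10 genes was 6.97, also with genes at 0 counts set to their lower bound, against 0.10 for all genes tested. In CD8+ T cells *Klrb1b* and *Klrb1f* were at 0 and *Klre1* at a mean of 3.18 normalised counts. All of these passed the filter through NK cells alone, which fixes their direction. In bulk RNA, fewer cells with a transcript and less transcript per cell cannot be told apart. Together the 10 genes took 0.376%, 0.422% and 0.405% of the counts in NK cells and 0.0130%, 0.0408% and 0.0134% in CD8+ T cells.

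**Figure D1:**
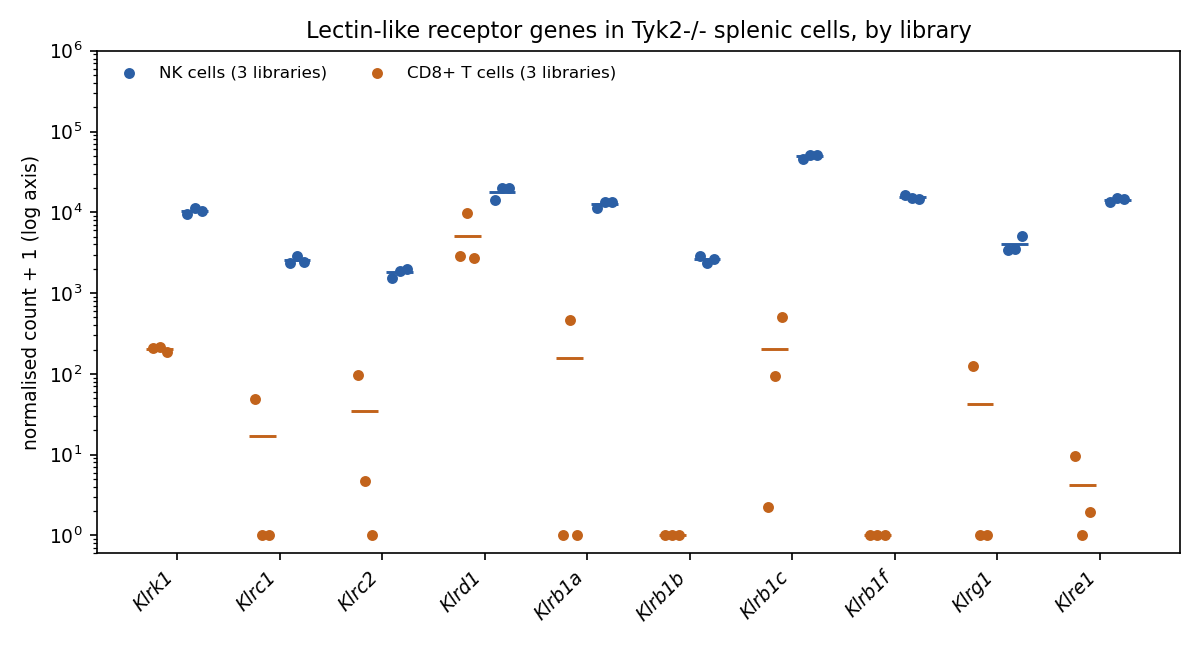
Normalised count plus 1, on a log axis, of each of the 10 receptor genes in the 3 NK cell libraries (blue) and the 3 CD8+ T cell libraries (orange) of Tyk2-/- mice, with a bar at each group's mean. The NK cell points of each gene lie close together and above all CD8+ T cell points, which for 5 of the genes run from 0 counts upwards and for Klrb1b and Klrb1f are all at 0.

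*Klrk1* encodes NKG2D, the activating receptor for stress-induced ligands. Its raw counts were 9752, 13423 and 11403 in NK cells and 170, 174 and 191 in CD8+ T cells. Both groups were even, and after normalisation the lowest NK cell library was 44.5 times the highest CD8+ T cell library. The log2 fold change was 5.67 ± 0.24 (SE), with an adjusted p of 0.00017. It was the only member besides *Klrd1* to be detected in every CD8+ T cell library, with a mean of 202 ± 15.2 normalised counts (SD, n = 3) against 10328 ± 880 in NK cells.

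*Klrd1* encodes CD94, the partner of the NKG2A and NKG2C chains. It had 14432, 24071 and 22187 counts in NK cells and 2336, 7978 and 2791 in CD8+ T cells. CD8+ T cell library 2 stood above the other two of its group and came within 1.44 times of the lowest NK cell library. The log2 fold change was 1.82 ± 0.54 (SE) and was not called (adjusted p = 0.077), but it was called at 2.73 without CD8+ T cell library 2 (adjusted p = 0.0033). Of the counts of the 10 genes, *Klrd1* made up 11.7%, 14.8% and 14.6% in NK cells. In CD8+ T cells it made up 85.5%, 92.6% and 79.6%.

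*Klrc1* encodes NKG2A, the inhibitory partner of CD94. Its counts were 2444, 3439 and 2685 in NK cells, and 39, 0 and 0 in CD8+ T cells. *Klrc2*, which encodes the activating NKG2C, had 1595, 2207 and 2211 counts in NK cells, and 79, 3 and 0 in CD8+ T cells. For both genes the CD8+ T cell counts lay almost entirely in library 1, and neither was called. The log2 fold change of *Klrc1* was 7.33 ± 1.97 (SE, adjusted p = 0.061). That of *Klrc2* was 5.75 ± 1.87 (SE, adjusted p = 0.094). Without CD8+ T cell library 1, both were called, with an adjusted p of 0.0019 for *Klrc1* and 0.012 for *Klrc2*. Both were then not detected in either remaining CD8+ T cell library and passed the filter through NK cells alone, which fixes their direction. CD8+ T cell library 1 also held the most counts of the B cell genes *Cd79a*, *Ms4a1* and *Cd79b*. It had 177 counts of the gamma delta T cell gene *Tcrg-C2*, at 0 in the other two, whereas *Trdc*, *Tcrg-C1* and *Cd4* were at 0 in it. Of the 6 NK cell markers, *Ncr1*, *Itga2* and *Itga1* were at 0 in all 3 CD8+ T cell libraries. The cytotoxicity genes *Gzma* and *Prf1* had 1412, 568 and 0 counts and 2203, 4841 and 2872 counts in libraries 1, 2 and 3, and *Eomes*, a transcription factor of NK and memory T cells, had 825, 350 and 1553. The sum of the 6 markers lay between 4282 and 7063 normalised counts in these libraries. The part of the markers named here in the result was not tested. The T cell receptor delta gene *Trdc* was itself called higher in NK cells, with 1350, 3027 and 2619 counts against 0, 2 and 1 (adjusted p = 0.0020). *Trdc* was thus not detected in any CD8+ T cell library and passed the filter through NK cells alone, which fixes its direction.

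In the transcripts of *Klrc1* and *Klrc2*, untranslated parts included, 38.5% and 29.4% of the 50-base windows also occur in transcripts of other genes, mostly of each other. Reads from such windows align to several places and were left out by the authors, so both genes can be undercounted. Per kb of exon, *Klrc1* made up 71.3%, 71.6% and 66.3% of the sum of both genes in NK cells (mean 69.7% ± 2.98, SD, n = 3). In CD8+ T cells only library 1, with 118 counts in the sum, allowed a share, which was 44.4%. With 3 values against 1, the exact permutation test (two-sided) gave p = 0.5, the smallest it can give. Set against their partner, *Klrc1* and *Klrc2* together had 11.6, 9.71 and 8.89 normalised counts per 100 of *Klrd1* in NK cells, per kb of exon, and 1.83, 0.0113 and 0 in CD8+ T cells, a ratio chosen after its values were seen. Per kb, *Klrd1* was therefore above the sum of both chains in every library of either cell type. With *Klrc3*, encoding NKG2E, added to the sum, the NK cell values were 16.8, 13.2 and 12.6, and those of CD8+ T cells did not change.

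*Klrb1c*, encoding the activating NK1.1 receptor, had 46536, 60933 and 57695 counts in NK cells, the most of the 10 genes. In CD8+ T cells it had 1, 76 and 525 counts, which rested mainly on library 3. The log2 fold change was 7.93 ± 1.67 (SE), with an adjusted p of 0.032. The call was lost without CD8+ T cell library 2 (adjusted p = 0.068) and without any 1 of the 3 NK cell libraries (adjusted p from 0.096 to 0.101).

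*Klrb1f* encodes NKR-P1F, a receptor for CLEC2 proteins. It had 16923, 17735 and 16035 counts in NK cells and 0 in each CD8+ T cell library, which makes it at least 4461-fold higher in NK cells against a floor of 3 counts per library (adjusted p = 0.00026). *Klrb1b*, the inhibitory NKR-P1 receptor, had 2935, 2800 and 2940 counts in NK cells and also 0 in each CD8+ T cell library, at least 765-fold higher (adjusted p = 0.0012). No other member was at 0 in all 3 CD8+ T cell libraries.

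*Klrb1a* encodes NKR-P1A. It had 11699, 16001 and 14803 counts in NK cells. In CD8+ T cells it had 0, 381 and 0 counts, so that library 2 alone carried it. The log2 fold change was 6.35 ± 2.24 (SE) and was not called (adjusted p = 0.114), but it was called without CD8+ T cell library 2 (adjusted p = 0.00058). With 0 counts in both remaining CD8+ T cell libraries, *Klrb1a* then passed the filter through NK cells alone, which fixes its direction. Library 2 also held the CD8+ T cell counts of *Klri2*, 107 against 0 and 0, and of *Tyrobp*, 544 against 0 and 0. Whether these reads came from the same cells was not tested.

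Within the NKR-P1 branch, the inhibitory *Klrb1b* was a minor part in NK cells, 3.45%, 2.65% and 2.98% of the sum of the 4 genes per kb of exon (mean 3.03% ± 0.404, SD, n = 3). In CD8+ T cells the share was 0 of 457 counts in library 2 and 0 of 525 in library 3, and library 1 had too few counts. The exact permutation test (two-sided) gave p = 0.2, the smallest that 3 values against 2 allow. Exons of *Klrb1b* and *Klrb1c* overlap those of the gene model *Gm44511* on the same strand, over 24.1% and 15.7% of their length, and *Gm44511* itself had no counts in any library. Of the 50-base windows, 25.0% of *Klrb1b*, 18.2% of *Klrb1c* and 10.6% of *Klrb1a* recur in transcripts of other genes, and none of *Klrb1f*. Reads in such exons can be undercounted, so the share of *Klrb1b* is uncertain to that extent.

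*Klrg1* encodes an inhibitory receptor of mature NK cells and of effector T cells. It had 3544, 4173 and 5687 counts in NK cells, where it was the most variable of the 10 genes, and 101, 0 and 0 in CD8+ T cells. The log2 fold change was 6.61 ± 2.08 (SE) and was not called (adjusted p = 0.086), but it was called without CD8+ T cell library 1 (adjusted p = 0.0022), the library with the *Klrc1* and *Klrc2* counts. With 0 counts in both remaining CD8+ T cell libraries, *Klrg1* then passed the filter through NK cells alone, which fixes its direction. *Klre1*, whose protein pairs with KLRI1 or KLRI2, had 13642, 17948 and 16050 counts in NK cells and 7, 0 and 1 in CD8+ T cells. After normalisation its lowest NK cell library was 1550 times its highest CD8+ T cell library (log2 fold change 12.13 ± 0.97, SE, adjusted p = 0.0010). At a mean of 3.18 normalised counts in CD8+ T cells, *Klre1* passed the filter through NK cells alone, which fixes its direction.

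**Figure D2:**
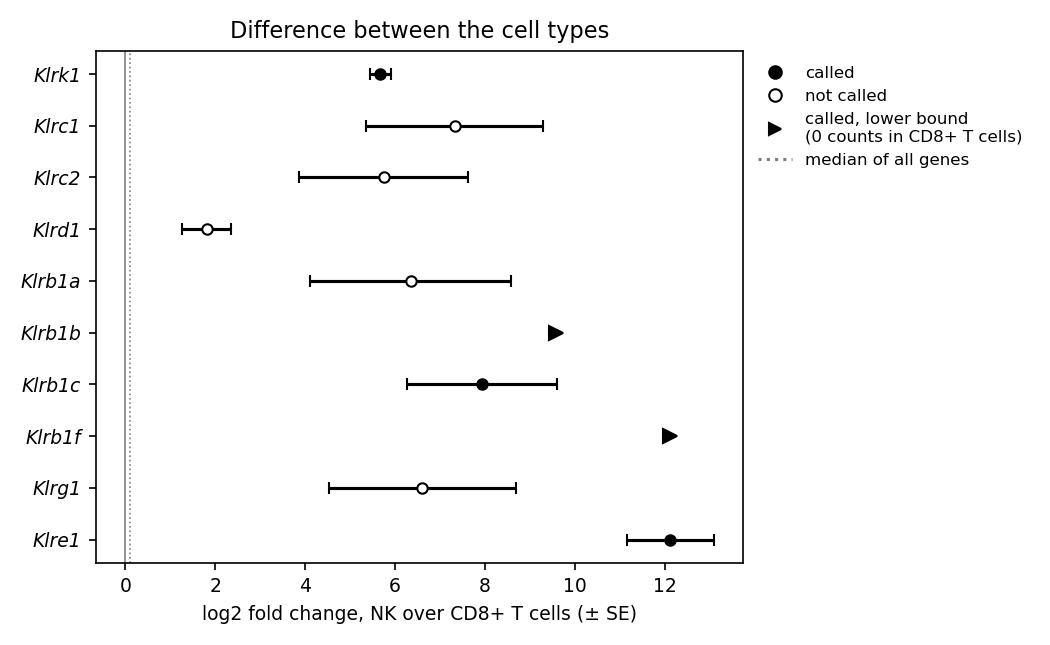
Difference between NK and CD8+ T cells, as log2 fold change with its standard error, for each of the 10 genes, from edgeR over the 3 libraries of each cell type, filled where called and open where not. Triangles give the lower bound for Klrb1b and Klrb1f, which had 0 counts in CD8+ T cells, and the dotted line the median of all genes, 0.10.

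Apart from *Klrk1*, the detected genes were less even among CD8+ T cell libraries than among NK cell libraries. Among NK cells the coefficient of variation of the 10 genes ran from 6.27% (*Klre1*) to 23.6% (*Klrg1*), with a median of 9.39%, and the 2772 genes at or above the level of the lowest member had a median of 13.9%. Among CD8+ T cells, 5 of the 10 genes reached 100 normalised counts in some library, and 2 of these, *Klrb1a* and *Klrg1*, had 0 counts in another library of the group. Of all genes reaching 100 in CD8+ T cells, 18.4% had such a 0, and of those reaching 100 in NK cells 3.82%. The wide errors of *Klrc1*, *Klrc2*, *Klrb1a* and *Klrg1* stand beside counts found mostly or wholly in a single CD8+ T cell library.

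Levels of different genes can be compared per kb of exon. In NK cells the order of the means began with *Klrb1c* at 18768 ± 1363 and *Klrd1* at 18686 ± 3595 normalised counts per kb (SD, n = 3), whose libraries overlapped. *Klre1* at 11009 ± 691, *Klrb1a* at 9967 ± 894 and *Klrb1f* at 8963 ± 635 followed below all libraries of *Klrd1*, each overlapping its neighbour. *Klrk1* at 3008 ± 256 and *Klrg1* at 2842 ± 670 overlapped each other and lay below *Klrb1f*. *Klrc1* at 1289 ± 141 and *Klrb1b* at 1174 ± 115 overlapped as well, and *Klrc2* was lowest at 559 ± 69.2. In CD8+ T cells *Klrd1* stood alone at 5294 ± 4187 normalised counts per kb, its lowest library above every library of the next gene, *Klrb1a*. Below it, each gene overlapped its neighbour in the order.

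**Figure D3:**
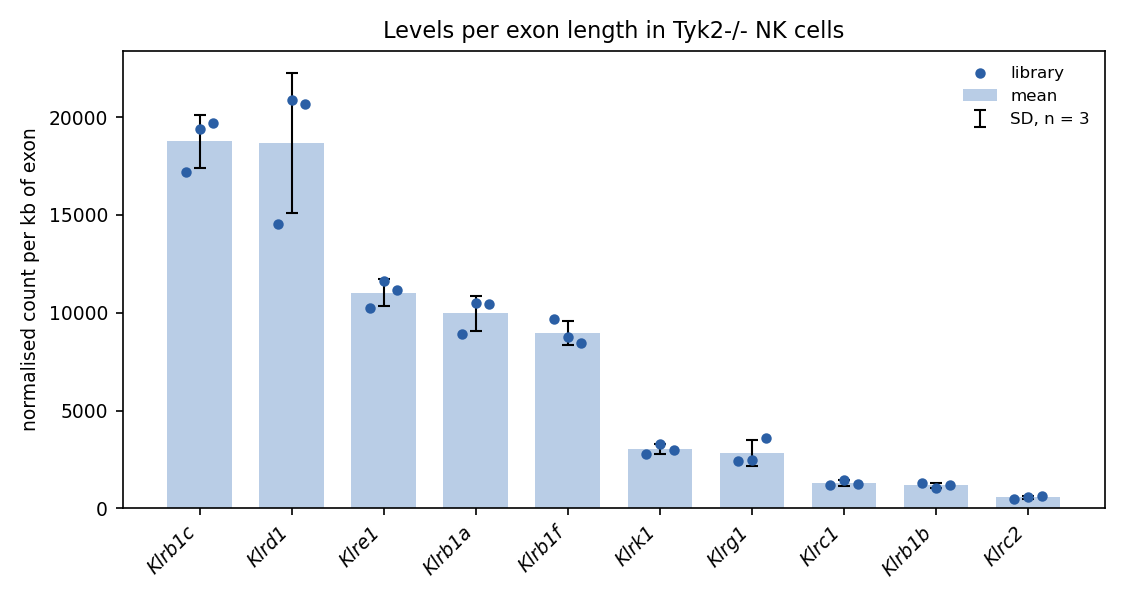
Normalised count per kb of exon of the 10 genes in Tyk2-/- NK cells, ordered by mean (bars), with the SD of 3 libraries and a point for each library. Klrb1c and Klrd1 lead, Klre1, Klrb1a and Klrb1f form a middle step, and the other 5 genes lie lower.

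Of the other receptors of the family, 4 were found in the table, and 3 of these, *Klrb1*, *Klrc3* and *Klri1*, were called higher in NK cells, as 6.1% of all genes were. These 3 had no count in CD8+ T cells and so passed the filter through NK cells alone, which fixes their direction. *Klrc3*, encoding NKG2E, had 576, 634 and 629 counts in NK cells, at least 162-fold higher. *Klri1*, which encodes a partner of KLRE1, had 279, 249 and 557 counts, at least 95.7-fold higher, and *Klrb1* had 253, 306 and 222 counts, at least 68.5-fold higher. These adjusted p-values were 0.014, 0.027 and 0.032, and none of the 3 was called once any NK cell library was left out. *Klri2*, the other partner of KLRE1, had 7772, 9749 and 7387 counts in NK cells but was not called (adjusted p = 0.063).

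Of the genes for ligands of these receptors, 2 CLEC2 genes, 2 NKG2D ligand genes and 1 of 4 for NKG2A and KLRG1 passed the filter. None of these was called with all libraries, where 11.1% of all genes tested were, and the other ligand genes were not tested. Of the 6 CLEC2 genes, 4 were not detected in any library. *Clec2i*, encoding the Clr-g ligand of NKR-P1F, had 936, 1802 and 1976 counts in NK cells and 214, 714 and 161 in CD8+ T cells. It was called only without CD8+ T cell library 2. *Clec2d*, encoding the Clr-b ligand of NKR-P1B, had 294, 538 and 577 in NK cells and 0, 89 and 569 in CD8+ T cells. Of 8 NKG2D ligand genes listed, 5 were in the table, of which 3 were not detected and 2 passed the filter. Among ligands of NKG2A and KLRG1, *H2-T23*, encoding Qa-1, had 1232, 1180 and 911 counts in NK cells and 810, 39 and 1384 in CD8+ T cells, with overlapping groups.

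Of 16 genes for adaptors and kinases of activating receptors, 2 were called, both higher in NK cells, a share near the 11.1% of all genes, and the median log2 fold change was 0.65, against 0.10 for all genes. The groups did not overlap for 7 of the 16 with NK cells above and for 4 with NK cells below, against 25.5% and 16.1% of all genes. *Fcer1g*, encoding the Fc receptor gamma chain with which NK1.1 signals, had 297389, 401504 and 404854 counts in NK cells and 117, 456 and 2 in CD8+ T cells (log2 fold change 10.46 ± 1.81, SE, adjusted p = 0.017). *Syk* had 1324, 2360 and 1118 counts in NK cells and 0 in each CD8+ T cell library, at least 416-fold higher (adjusted p = 0.0048), and so passed the filter through NK cells alone. *Tyrobp*, encoding DAP12, had 270220, 332413 and 318804 counts in NK cells and 0, 544 and 0 in CD8+ T cells, but missed the threshold (adjusted p = 0.054). The 4 lower ones were *Plcg1*, *Cd247*, *Grb2* and *Lcp2*, none of them called. *Plcg1*, encoding a phospholipase of receptor signalling, had 78, 106 and 349 counts in NK cells and 741, 893 and 3253 in CD8+ T cells (log2 fold change -3.43 ± 0.87, SE, adjusted p = 0.053). The count of called genes in this list reached 5 without CD8+ T cell library 2 and fell to 1 without any of the NK cell libraries, each of which cost *Fcer1g* its call and left *Syk*.

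DAP10, encoded by *Hcst*, is an adaptor of NKG2D, which in mouse NK cells can also signal through DAP12. It had 14563, 18851 and 20212 counts in NK cells and 6012, 10150 and 8284 in CD8+ T cells, a log2 fold change of 0.79 ± 0.25 (SE, adjusted p = 0.086). Per kb of exon, *Klrk1* had 8.62, 9.17 and 7.26 normalised counts per 100 of *Hcst* in NK cells and 0.364, 0.221 and 0.297 in CD8+ T cells. This ratio was chosen after its values were seen. The groups did not overlap, which mostly restates the difference in *Klrk1* itself. *Zap70* and *Lck*, kinases that T cells and NK cells share, had log2 fold changes of -0.05 and -0.10 and were not called.

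Of the 3 phosphatases that bind ITIM tails, 1 was called, against 11.1% of all genes tested. It was *Inpp5d*, encoding SHIP-1, with 11914, 13932 and 12148 counts in NK cells and 642, 1276 and 951 in CD8+ T cells. Its log2 fold change was 3.39 ± 0.32 (SE, adjusted p = 0.0018). *Ptpn6*, encoding SHP-1, was alike in level, with 14380, 14736 and 11675 counts against 17532, 8294 and 9933, and overlapping groups (log2 fold change -0.16 ± 0.34, SE). *Ptpn11*, encoding SHP-2, had 4902, 3794 and 5247 counts in NK cells and 0, 845 and 22 in CD8+ T cells and was not called (adjusted p = 0.251).

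**Figure D4:**
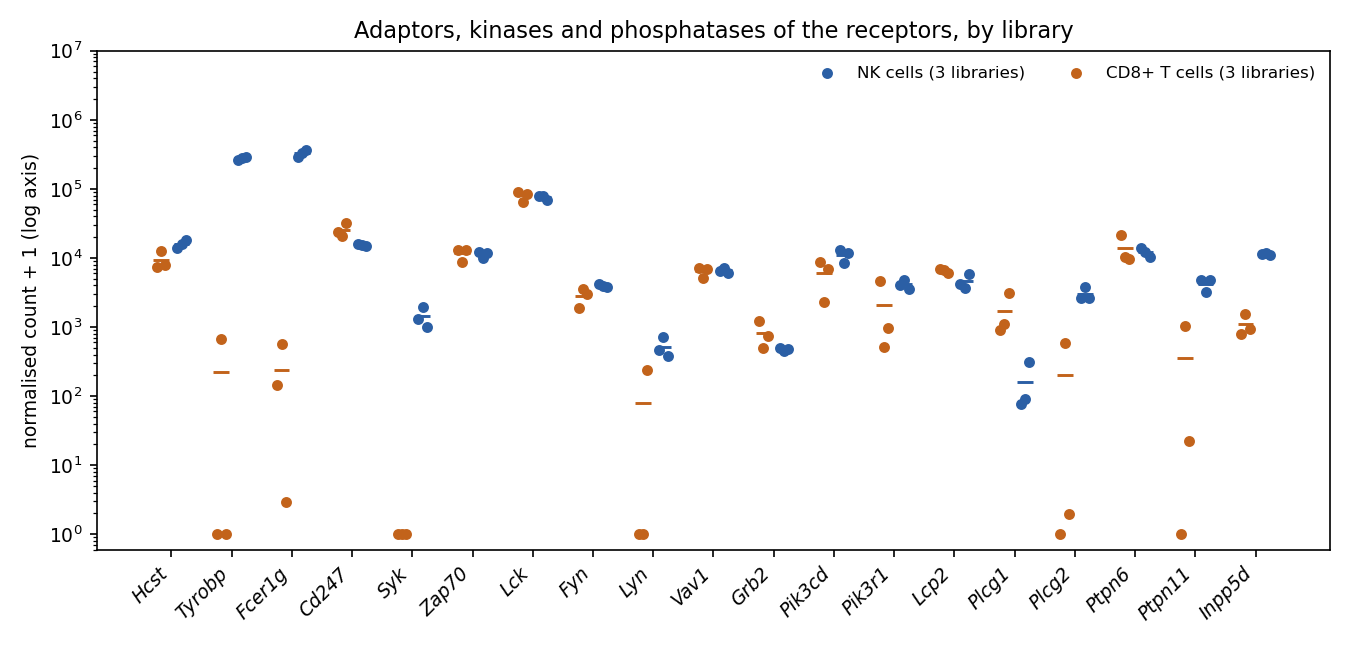
Normalised count plus 1, on a log axis, of 16 adaptor and kinase genes and 3 phosphatase genes in the 3 NK cell libraries (blue) and the 3 CD8+ T cell libraries (orange), with a bar at each mean. The called genes Fcer1g, Syk and Inpp5d lie higher in NK cells, Tyrobp, Plcg2 and Ptpn11, which were not called, have higher NK cell means with uneven CD8+ T cell libraries, and Zap70, Lck, Vav1 and Ptpn6 overlap between the cell types.

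The members were also set beside their neighbours on the chromosome. Between *Klrb1a* and *Klrc1* lie 52 other genes, of which 16 passed the filter and 3 were called, against 11.1% of all genes tested. Of the 16, 7 were not detected in any CD8+ T cell library and so passed the filter through NK cells alone, which fixes their direction. *Klrb1* and *Klrc3* were called higher in NK cells. *Cd69*, an early activation antigen of the same lectin-like family, was called in the other direction, with 367, 539 and 573 counts in NK cells and 7944, 15657 and 6053 in CD8+ T cells (log2 fold change -4.71 ± 0.51, SE, adjusted p = 0.0032).  In the stretch from *Klrg1* to *Klrb1a*, 70 of 242 other genes passed and 5 were called in each direction.

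**Figure D5:**
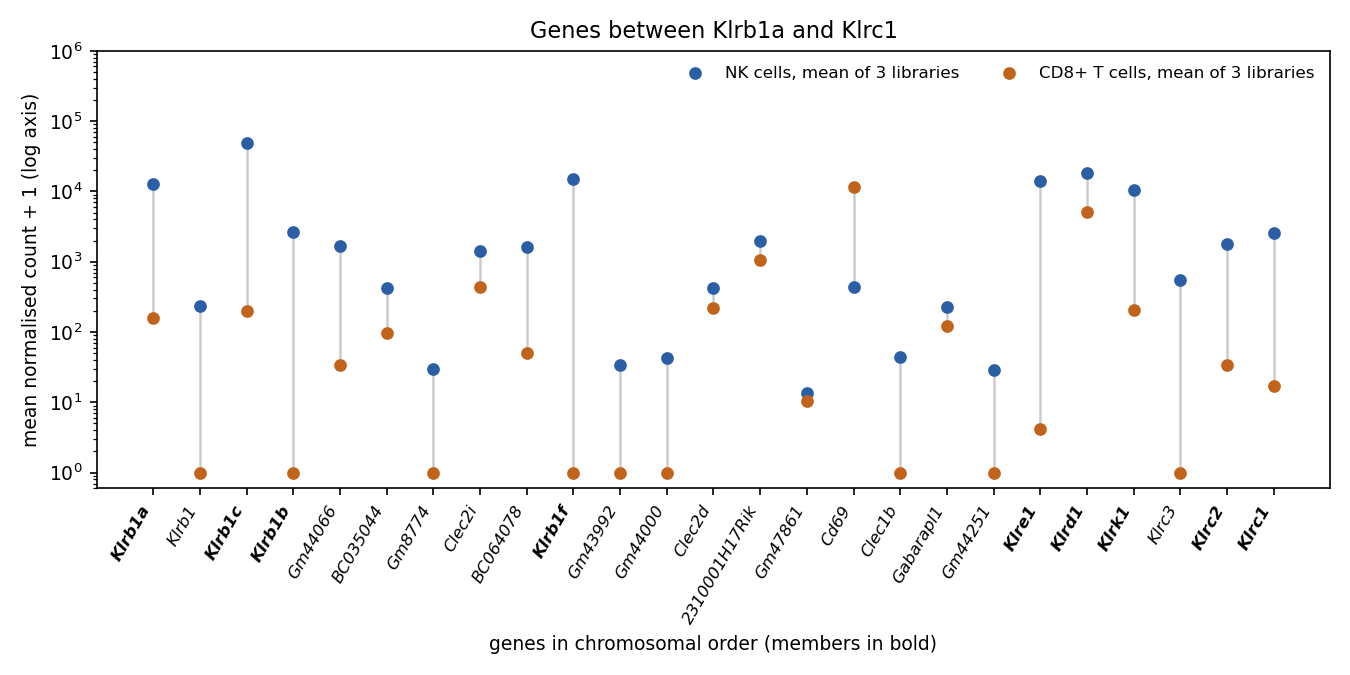
Mean normalised count plus 1, on a log axis, in NK cells (blue) and CD8+ T cells (orange) of the 25 genes that passed the filter from Klrb1a to Klrc1, in chromosomal order with the receptor genes described here in bold. Of their means, that of Cd69 alone is higher in CD8+ T cells, and receptor genes with high NK cell levels stand on both sides of low ones.

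The mean of the log2 levels of the 10 genes over the 6 libraries was most like that of *Arl4d*, *Limk1*, *Hnrnpab*, *Ndufb7* and *Il2rb*, among 4487 other genes with a mean of at least 1000 normalised counts. Pearson's r lay between 0.9991 and 0.9997. The libraries fall into 2 clusters, the cell types, so that r mostly restates that each gene differed between them, and no p is given. *Il2rb*, encoding the shared beta chain of the IL-2 and IL-15 receptors, had 71086, 70842 and 73422 counts in NK cells and 1286, 1229 and 840 in CD8+ T cells. *Arl4d* had 27595, 26753 and 27105 counts in NK cells and 2, 1 and 0 in CD8+ T cells.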

How the data were processed

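RNA of CD8+ T cells and NK cells from *Tyk2*-/- spleens was sequenced after Smart-seq2 amplification from 500 pg of RNA (3 libraries each). The authors used Trimmomatic 0.32 on the 50-base single-end reads, STAR 2.7.1 for alignment to mm10 and R 3.2.3 to count, in exons of the GENCODE Basic set, reads with a single alignment, and deposited raw counts. Whether strand was used is not given in the sources used here. Depth was 20957384 to 38573550 counts per library. The table has 104 columns of counts, and 98 of them were left aside, 6 being used. Of the former, 3 are of *WT* CD8+ T cells, against 2 such samples, so a comparison with *WT* was not run. The libraries carry running numbers that do not match the numbers of the samples. As nothing ties libraries to separate animals beyond the pools, p-values measure the spread between these libraries.

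Counts were analysed with edgeR 4.0.16 in R 4.3.3 (TMM factors, mean normalised count of at least 10, robust quasi-likelihood test, two-sided, Benjamini-Hochberg adjustment over 14062 genes, absolute log2 fold change of at least 1), after the script was tested on simulated data. SE was obtained from the log2 fold change and the square root of its F statistic. Exon lengths and positions came from GENCODE vM21, and 54079 of 54232 gene IDs had one. The genes described, the lists and the markers were chosen with earlier results of these data known. Named were the 10 receptor genes, the called genes of each list (at most 6, by mean), called neighbours on the chromosome and the 5 genes most like the members' mean; other list genes were named after their values were seen. The result for 1 of the B cell marker genes is not reported here. Alternatives were RLE factors, total counts only, DESeq2 1.42.0, no filter, no robust estimation, NK cell counts thinned at random to the total of the shallowest library, leaving out each library, and shares without correction for length. Python 3.11.15, pandas 2.3.3, numpy 2.4.6 and matplotlib 3.10.9 were used.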

Additional observations from a re-analysis of the deposited data

How the results depend on the processing

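Of 120 recomputed log2 fold changes of the 10 receptor genes, 107 kept their direction and call, 4 lost the call, 9 gained it and none reversed. The 4 lost calls were of *Klrb1c* when CD8+ T cell library 2 or any NK cell library was left out. With DESeq2 9 of the 10 were called in place of 5, all higher in NK cells. Leaving out each library in turn gave 4 to 8. The 8 came without CD8+ T cell library 1, where 1642 of 14174 genes tested were called. *Klrc1*, *Klrc2* and *Klrg1*, which gained calls without that library, were not detected in the remaining CD8+ T cell libraries. Nor was *Klrb1a*, which gained its call without CD8+ T cell library 2. Under RLE factors, total counts only, no filter, no robust estimation and thinned NK cell libraries, the same 5 were called. The cause of the change under DESeq2 was not tested.

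Over all genes, 1567 were called, and 475 to 1876 when a library was left out, the lowest without NK cell library 3. Of these, 858 (235 to 1170) were higher in NK cells and 709 (240 to 724) in CD8+ T cells. DESeq2 called 3572, with 2073 higher in NK cells and 1499 in CD8+ T cells. Total counts only moved the median of all genes from 0.10 to -0.27 and called 1074 higher in CD8+ T cells. Called adaptors and kinases rose from 2 to 4 under total counts only, DESeq2, no robust estimation and thinning. *Plcg1*, lower in NK cells, was added in each of these, with *Cd247*, also lower, under total counts only and *Tyrobp*, higher, in the other 3. The number of called adaptors and kinases ranged from 1 to 5 when a library was left out. Without a library, called genes numbered 0 to 4 for the other receptors, 0 to 1 for CLEC2 ligands and 1 to 2 for the phosphatases. The difference in the *Klrc1* share was 24.4 to 27.0 percentage points and that of *Klrb1b* 2.82 to 3.22 when a library was left out. These ranges reflect NK cell libraries alone, since the *Klrc1* share of CD8+ T cells rests on library 1, without which it has no value, and that of *Klrb1b* is 0. Neither design could reach p below 0.05. No paired analysis was possible because the groups share fewer than 2 replicate numbers and the libraries used carry other numbers.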
